A study of Mus musculus with 8 samples.

Results

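Respiratory complex I is described here through the nuclear genes whose symbols start with Nduf, in bulk RNA sequencing of mouse femoral bone. The members are the rows of the deposited count table whose Ensembl ID has a protein-coding GENCODE M21 symbol that starts with Nduf, without Ndufa4, whose product belongs to complex IV. Described here are 44 of the 49315 gene IDs in the table (build mm10, GRCm38, on which gene positions are given), and all 44 passed the low-count filter that left 17450 genes for testing. By known function they comprise 6 core subunits, 29 accessory subunits, 8 Ndufaf assembly factors and Ndufa4l2, a paralog of Ndufa4 with no settled place in the complex. The libraries came from the femoral shafts of 8 male mice at 24 weeks of age. Of these, 4 were wild-type (WT) and 4 carried the genotype Girk3-/- (KO), a deletion of both Girk3 alleles. Girk3 is the potassium channel gene with the symbol Kcnj9. All 8 mice carry the strain label C57BL6, and all bones lost their ends and were rinsed with saline to remove the marrow before RNA extraction. The labels name no Cre driver or tissue restriction for the deletion, nor the deleted part of the gene, nor whether the WT mice were littermates.

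Complex I sits in the inner mitochondrial membrane, takes electrons from NADH, passes them along a flavin and a chain of iron-sulfur clusters to ubiquinone, and pumps protons. It has an L shape, with a matrix arm that carries out the electron transfer and a membrane arm that moves the protons. The core subunits do this work and are conserved down to bacteria, with those of the matrix arm encoded in the nucleus and those of the membrane arm in mitochondrial DNA. The accessory subunits surround and stabilise the core, and assembly factors help to build the complex without staying in it. Skeletal muscle, which attaches to the femur, is known for a high content of mitochondria.

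Totals ranged from 30087749 to 36553713 counts per library. Levels are CPM, counts scaled to a common library size, with library sizes adjusted by TMM, which aligns libraries on the bulk of their genes, with scaling factors from 0.831 in KO replicate 4 to 1.18 in WT replicate 4. Kcnj9 had 7, 6, 6 and 23 counts in WT and 0, 8, 4 and 7 counts in KO, and since the deleted part is not stated these low counts check nothing. The 12 osteoblast and osteocyte markers were all measured, with a mean log2 CPM between 6.74 and 7.55 in WT and between 6.48 and 7.40 in KO, and 10 of the 12 had negative log2 fold changes (median -0.25, 0 called by edgeR or DESeq2, 2 lower at an unadjusted p under 0.05). Their direction turned without WT replicate 4 and KO replicate 4 (median 0.02, 7 of the 12 positive) and with the mean of the muscle markers as a covariate (median 0.05, 7 positive), and with marrow markers as a covariate edgeR called Runx2 lower. The 18 skeletal muscle markers, none of them at 0 in any library, held between 8.84% and 13.7% of the counts in WT and between 12.5% and 16.4% in KO. WT replicate 4 had the lowest muscle share and KO replicate 4 the highest. In bulk tissue, fewer cells of a type and less RNA per cell cannot be told apart.

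All 44 members had a higher fitted level in KO than in WT. The log2 fold changes ranged from 0.18 for Ndufa12 to 0.91 for Ndufa2, with a median of 0.62, or 1.53-fold, beside a median of -0.01 over all genes tested, of which 48.6% had a positive log2 fold change. No member passed the main test, the quasi-likelihood test of edgeR at a Benjamini-Hochberg adjusted p under 0.05 over all 17450 genes. That test called 0 of the 44 members and 0.00573% of all genes as higher in KO, and the lowest adjusted p of a member was 0.0714. At a threshold of 0.10 it called 28 members (1.83% of all genes), and without the low-count filter 6 at 0.05 (0.171%). At an unadjusted p under 0.05, 39 of the 44 members were higher in KO, beside 9.59% of all genes. For 37 members, every KO library lay above every WT library, which held for 7.33% of all genes. Other tools drew the line elsewhere: DESeq2 called 35 members (3.9% of the genes it gave an adjusted p) and limma-voom with sample quality weights called 29 (2.41% of all genes).

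**Figure D1:**
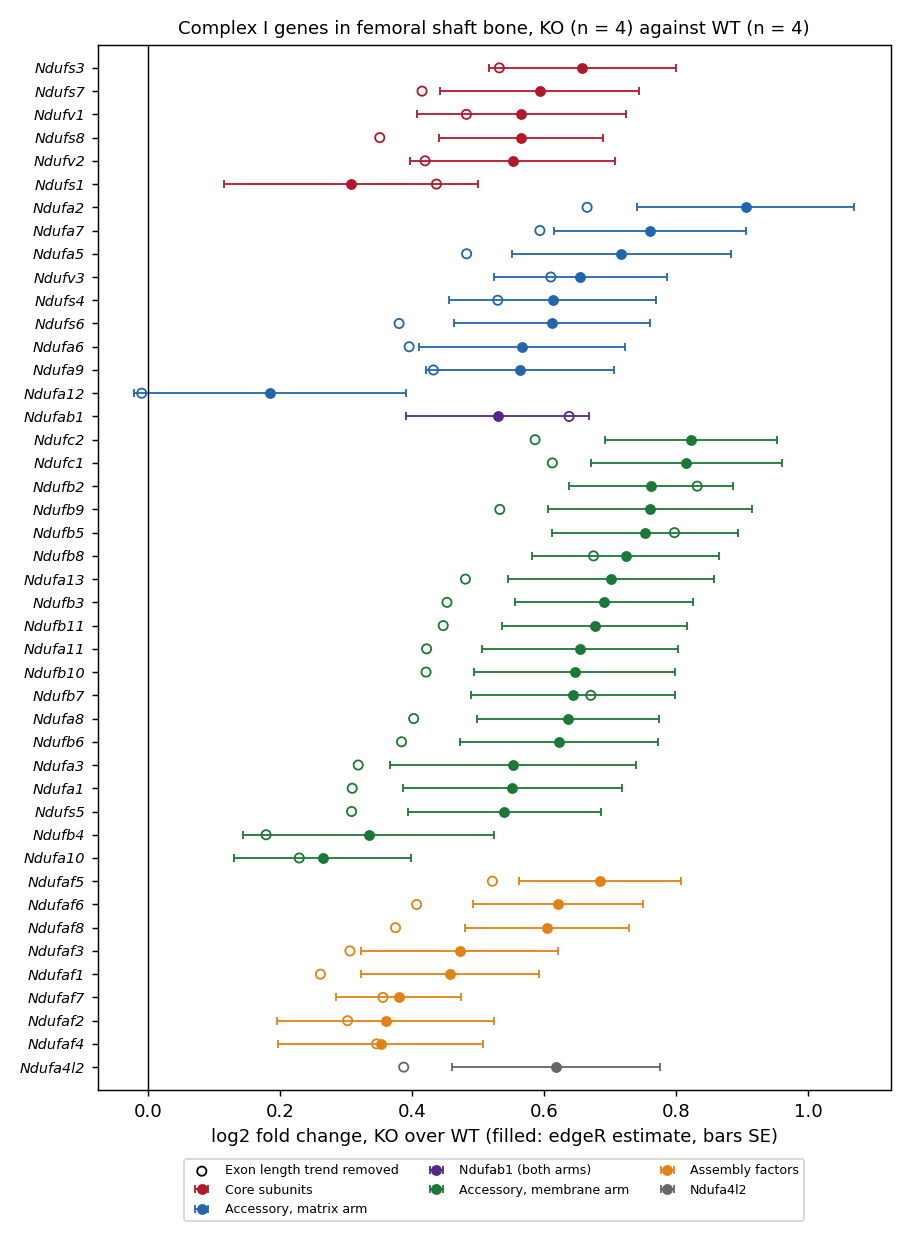
The horizontal axis is the log2 fold change of KO over WT, with 1 row for each of the 44 members, grouped and coloured by role. Filled points with bars are the edgeR estimates and their SE, and open circles are the estimates after removal of the dependence on exon length in each library; all filled points lie above 0, from 0.18 to 0.91.

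The spread over libraries was shared by most members. KO replicate 1 held the highest value of 34 members, and KO replicates 2, 3 and 4 that of 3, 4 and 3. WT replicate 4 held the lowest value of 33 members, WT replicate 1 that of 9 and KO replicate 2 that of 2. These ranks are of levels scaled by TMM. As a share of all counts, the members held 0.517% in WT replicate 4, above 0.513% and 0.511% in WT replicates 1 and 2. KO replicate 4 had the lowest KO share, at 0.651%. With library totals without TMM, the median log2 fold change of the members was 0.52, against 0.62 in the main fit. The mean log2 CPM of all members was 6.39, 6.41, 6.59 and 6.21 in WT replicates 1 to 4 and 7.20, 6.85, 6.92 and 6.995 in KO replicates 1 to 4. The lowest KO library thus lay above the highest WT library, and KO replicate 1 stood above the other KO libraries. The mean log2 CPM of the accessory subunits was 7.79 in KO replicate 1 and 7.37 to 7.56 in the other KO libraries. It was 4.74 and 4.50 to 4.62 for the assembly factors, and 8.15 and 8.04 to 8.10 for the core subunits. Without KO replicate 1 the median log2 fold change of the 44 members was 0.51, and 0 members were called by edgeR.

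**Figure D2:**
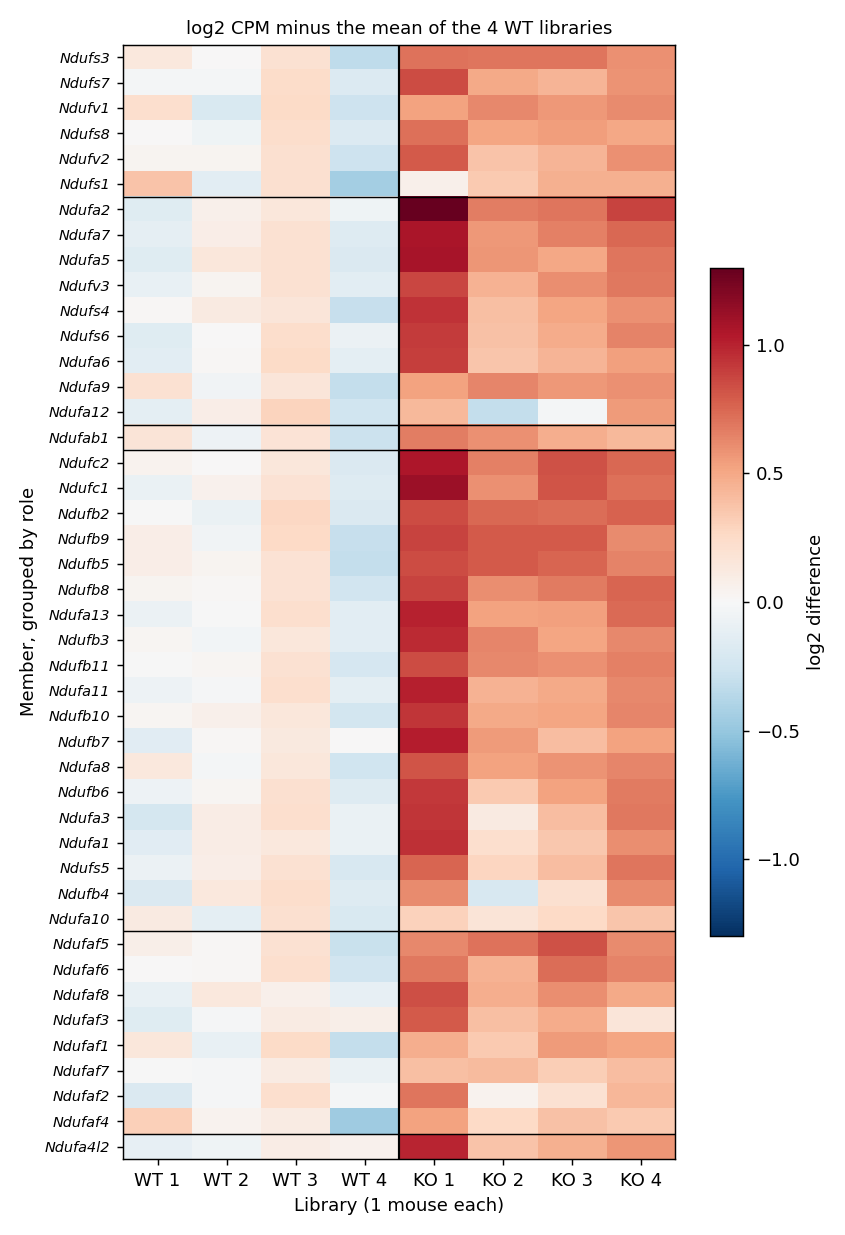
Each row is 1 member and each column 1 library, and the colour is the log2 CPM minus the mean of the 4 WT libraries, red for higher and blue for lower. The KO columns are red in most rows and darkest in KO replicate 1, while Ndufs1, Ndufa12, Ndufb4 and Ndufa10, the 4 members with the smallest log2 fold changes, are among the palest.

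Promoter sequence is shown for 5 members because nuclear respiratory genes are known targets of the factors NRF1, GABP (an ETS factor), the estrogen-related receptors (ERR) and YY1. RefSeq promoter windows of 300 bases, from 250 before to 50 after the start on GRCm38.p6, were found for 39 of the 44 members. The first 4 shown have the smallest p among the members that hold the letters of NRF1, ETS, ERR and YY1, in that order. Ndufa12 holds none of the motifs and had the largest p of all members. Each run is 280 bases long and ends 30 bases after the start, which is counted as base 1 and follows base -1. It reads 5′ to 3′ on the strand of the gene, with motif matches in capitals. The runs lie at chr2:140170396-140170675 (plus strand) for Ndufaf5, chr11:120098684-120098963 (plus) for Ndufaf8, chr6:39592315-39592594 (plus) for Ndufb2, chr3:51408926-51409205 (minus) for Ndufc1 and chr10:94198785-94199064 (plus) for Ndufa12.
Ndufaf5: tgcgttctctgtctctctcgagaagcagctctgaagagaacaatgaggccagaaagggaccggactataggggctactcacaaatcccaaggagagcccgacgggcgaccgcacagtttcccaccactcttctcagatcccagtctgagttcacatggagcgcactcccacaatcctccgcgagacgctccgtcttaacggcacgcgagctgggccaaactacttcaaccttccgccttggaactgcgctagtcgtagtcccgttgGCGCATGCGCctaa
Ndufaf8: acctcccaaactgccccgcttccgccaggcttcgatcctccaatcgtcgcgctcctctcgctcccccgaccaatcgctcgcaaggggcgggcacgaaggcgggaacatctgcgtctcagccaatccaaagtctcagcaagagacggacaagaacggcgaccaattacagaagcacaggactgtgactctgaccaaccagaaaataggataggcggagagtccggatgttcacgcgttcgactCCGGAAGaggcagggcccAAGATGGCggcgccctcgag
Ndufb2: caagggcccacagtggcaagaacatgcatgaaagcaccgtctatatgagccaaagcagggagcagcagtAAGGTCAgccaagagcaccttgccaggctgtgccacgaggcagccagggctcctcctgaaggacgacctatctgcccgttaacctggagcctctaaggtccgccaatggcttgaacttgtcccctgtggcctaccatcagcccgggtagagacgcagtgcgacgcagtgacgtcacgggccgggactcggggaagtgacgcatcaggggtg
Ndufc1: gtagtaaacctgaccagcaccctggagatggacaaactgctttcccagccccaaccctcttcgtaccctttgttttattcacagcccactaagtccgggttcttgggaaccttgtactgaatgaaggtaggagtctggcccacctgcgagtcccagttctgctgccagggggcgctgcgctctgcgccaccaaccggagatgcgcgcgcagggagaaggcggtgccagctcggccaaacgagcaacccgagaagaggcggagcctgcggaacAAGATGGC
Ndufa12: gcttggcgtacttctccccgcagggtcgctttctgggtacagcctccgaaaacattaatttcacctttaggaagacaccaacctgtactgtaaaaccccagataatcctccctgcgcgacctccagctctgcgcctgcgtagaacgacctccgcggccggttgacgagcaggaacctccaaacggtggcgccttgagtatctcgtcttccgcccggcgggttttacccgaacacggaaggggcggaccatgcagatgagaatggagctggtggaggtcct

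In Ndufaf5 the capitals are 2 overlapping NRF1 matches, 1 on each strand, whose first bases are at 17 and 19. Ndufaf8 has an ETS match that starts at base -8 and a YY1 match at base 11, Ndufb2 an ERR match at base -181 and Ndufc1 a YY1 match at base 23. The letters searched, on both strands, were GCGCATGC for NRF1, CCGGAAG for ETS, AAGGTCA for ERR and AAGATGGC for YY1. YY1 letters were in the windows of 8 of the 39 members (20.5%) and in 2.75% of all 32851 windows. NRF1 letters were in 5 members (12.8%, all windows 2.71%), ETS letters in 6 (15.4%, all windows 8.86%) and ERR letters in 3 (7.69%, all windows 4.72%). At least 1 of the 4 was in 21 members (53.8%) and in 17.6% of all windows. The median log2 fold change of members was 0.64 with and 0.61 without NRF1, 0.61 and 0.61 for ETS, 0.54 and 0.61 for ERR, and 0.61 and 0.62 for YY1.

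The factors themselves were measured. Of 9 regulators of respiratory genes, 5 had positive and 4 negative log2 fold changes (median 0.06). edgeR called 0 of them, limma-voom 0 and DESeq2 1, Pprc1. Pprc1, a coactivator of the PGC-1 family, was at 33.2 ± 2.59 CPM over the WT mice and 24.3 ± 3.21 CPM over the KO mice, for a log2 fold change of -0.45 (SE 0.12, adjusted p = 0.106 by edgeR). Tfam, which packages and transcribes mitochondrial DNA, was at 38.7 ± 5.91 CPM over the WT mice and 51.8 ± 1.92 CPM over the KO mice, for a log2 fold change of 0.42 (SE 0.12, adjusted p = 0.125 by edgeR). These 2 genes alone had an unadjusted p under 0.05, in opposite directions. With the marrow markers as a covariate edgeR called both, at an adjusted p of 0.0377 for Pprc1 and 0.03275 for Tfam, and with the exon length trend removed the median of the 9 was 0.15, with 8 positive. Ppargc1a (PGC-1 alpha) had a log2 fold change of 0.06, Nrf1 -0.12, Gabpa -0.06, Yy1 0.11 and Esrra 0.23.

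The 6 nuclear core subunits described here had a median log2 fold change of 0.565, and 5 of the 6 had an unadjusted p under 0.05 and KO libraries that all lay above the WT libraries. DESeq2 called 5 and limma-voom 3. Ndufs3, which helps to form the quinone-binding part of the matrix arm, had the smallest p of the class (chromosome 2, 90894634 to 90904827, 2178 exonic bases). It was at 169.5, 155, 177 and 123 CPM in WT replicates 1 to 4 and at 251.3, 249.5, 250.1 and 233 CPM in KO replicates 1 to 4. The groups were far apart, and KO replicate 4 lay below 3 near-equal KO values. The means were 156 ± 24.0 CPM over the WT mice and 246 ± 8.51 CPM over the KO mice (SD, n = 4 each), a log2 fold change of 0.66 (SE 0.14, adjusted p = 0.0786 by edgeR).

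Ndufs8 and Ndufs7 carry iron-sulfur clusters close to the quinone site, Ndufs7 the last of the chain. Ndufs8 (chromosome 19, 3908863 to 3912774, 1291 exonic bases) was at 86.4, 83.1, 101 and 76.1 CPM (WT) against 142, 123, 126 and 122 CPM (KO), in replicate order, for a log2 fold change of 0.56 (SE 0.12, adjusted p = 0.0806 by edgeR). Ndufs7 (chromosome 10, 80249121 to 80256794, 1718 exonic bases) was at 224, 225, 269.7 and 202 CPM (WT) against 412, 323, 311 and 343 CPM (KO), for a log2 fold change of 0.59 (SE 0.15, adjusted p = 0.0999 by edgeR). In both genes the groups did not overlap, WT replicate 3 was the highest WT library and KO replicate 1 the highest KO library.

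Ndufv1 and Ndufv2 make up, with Ndufs1, the tip of the matrix arm that oxidises NADH, and Ndufv1 binds NADH and the flavin. Ndufv1 (chromosome 19, 4007384 to 4012806, 2634 exonic bases) was at 303, 228, 310.5 and 216 CPM (WT) against 375, 404, 386 and 401 CPM (KO), for a log2 fold change of 0.57 (SE 0.16, adjusted p = 0.119 by edgeR). Its WT libraries fell into a high pair, replicates 1 and 3, and a low pair, and all KO libraries lay above both. Ndufv2 (chromosome 17, 66078638 to 66101559, 2147 exonic bases) was at 226, 226, 254.5 and 184 CPM (WT) against 385, 285, 301 and 334 CPM (KO), for a log2 fold change of 0.55 (SE 0.16, adjusted p = 0.1195 by edgeR). Here too the groups did not overlap, by the margin between WT replicate 3 and KO replicate 2.

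Ndufs1 differed from the other 5 core subunits described in that its groups overlapped. Ndufs1, the largest subunit of the complex (chromosome 1, 63143596 to 63176833, 8086 exonic bases), was at 301, 212, 269.7 and 171 CPM (WT) against 243.5, 295, 321 and 319.8 CPM (KO). KO replicate 1, the highest library for most members, was the lowest KO library here, as it was for Ndufv1 and Ndufa9. The log2 fold change of Ndufs1 was 0.31 (SE 0.19, adjusted p = 0.4375 by edgeR).

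**Figure D3:**
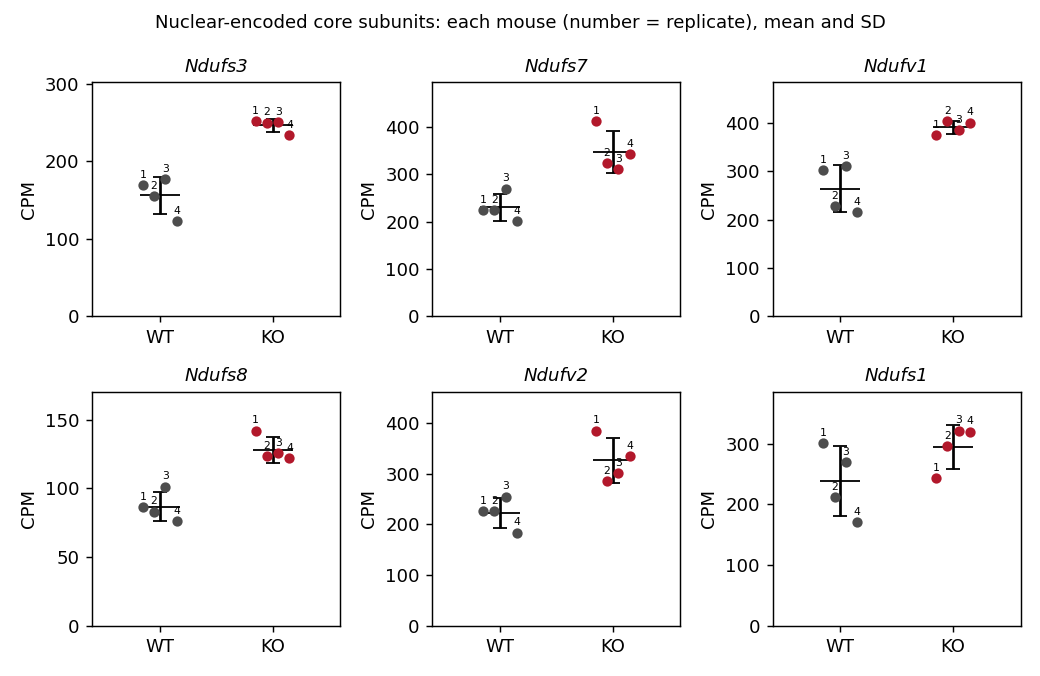
The vertical axis is CPM, from 0, for each of the 6 nuclear core subunits described, with WT in grey and KO in red and the replicate number beside each point. Bars show mean and SD of 4 mice. The groups are apart in the first 5 panels and overlap for Ndufs1.

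The 29 accessory subunits had a median log2 fold change of 0.65. An unadjusted p under 0.05 was found for 26 of them and non-overlapping groups for 25, DESeq2 called 25 and limma-voom 21. The 9 of the matrix arm had a median of 0.61 and the 19 of the membrane arm one of 0.65. Ndufab1, the mitochondrial acyl carrier protein that sits in both arms, had groups that did not overlap, for a log2 fold change of 0.53 (SE 0.14, adjusted p = 0.102 by edgeR).

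In the matrix arm, Ndufa2, a small subunit with a thioredoxin-like fold, had the largest log2 fold change of all members (572 exonic bases). It was at 99.0, 116, 122 and 106.5 CPM (WT) against 273, 175, 179 and 203 CPM (KO). KO replicate 1 was far above the other KO libraries, which still lay above all WT libraries. The means were 111 ± 10.3 CPM over the WT mice and 208 ± 45.4 CPM over the KO mice (SD, n = 4 each), for a log2 fold change of 0.91 (SE 0.16, adjusted p = 0.0728 by edgeR). Ndufa7 (chromosome 17, 33824572 to 33838317, 1828 exonic bases), another small matrix-arm subunit, was at 76.8, 88.5, 95.2 and 74.3 CPM (WT) against 174, 123, 131 and 139 CPM (KO), a log2 fold change of 0.76 (SE 0.15, adjusted p = 0.0728 by edgeR). The groups were apart and KO replicate 1 was again the highest library.

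Ndufv3, an accessory neighbour of the flavin-binding subunit (chromosome 17, 31520115 to 31531331, 3189 exonic bases), was at 78.9, 86.4, 96.8 and 76.8 CPM (WT) against 154, 115.5, 128 and 135 CPM (KO), for a log2 fold change of 0.66 (SE 0.13, adjusted p = 0.0769 by edgeR). Ndufa5, next to the quinone-binding part (chromosome 6, 24518666 to 24528013, 1032 exonic bases), was at 129, 159, 165 and 127 CPM (WT) against 303, 214, 204 and 233 CPM (KO), for a log2 fold change of 0.72 (SE 0.17, adjusted p = 0.0868 by edgeR). Neither gene had a KO library within the WT range. The other 4 with non-overlapping groups, Ndufs4, Ndufs6, Ndufa6 and Ndufa9, had log2 fold changes between 0.56 and 0.61 and edgeR adjusted p between 0.0926 and 0.115. Ndufa12, a late-joining subunit paralogous to the assembly factor Ndufaf2 (chromosome 10, 94198720 to 94221443, 1569 exonic bases), was the exception in this arm. It was at 143, 165, 191 and 130.1 CPM (WT) against 209, 125, 152 and 228 CPM (KO). KO replicate 2 was the lowest of all 8 libraries and KO replicates 1 and 4 the highest, so the groups overlapped, and the log2 fold change was 0.18 (SE 0.21, adjusted p = 0.694 by edgeR).

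In the membrane arm, Ndufc2 and Ndufc1, small subunits that sit together in the proximal part of the arm, had the largest log2 fold changes of the arm. Ndufc2 (chromosome 7, 97400003 to 97407802, 754 exonic bases) was at 89.45, 86.9, 96.0 and 76.0 CPM (WT) against 179.8, 137, 154 and 146 CPM (KO), with means of 87.1 ± 8.31 CPM over the WT mice and 154 ± 18.5 CPM over the KO mice and a log2 fold change of 0.82 (SE 0.13, adjusted p = 0.0714 by edgeR). Ndufc1 (chromosome 3, 51404677 to 51408988, 1495 exonic bases), whose start holds the YY1 letters shown above, was at 80.9, 89.45, 97.9 and 76.5 CPM (WT) against 186, 129, 151 and 141 CPM (KO), for a log2 fold change of 0.82 (SE 0.15, adjusted p = 0.0714 by edgeR). Both had groups far apart with KO replicate 1 on top.

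The Ndufb subunits belong to the distal part of the membrane arm. Ndufb2 (chromosome 6, 39592574 to 39603382, 5628 exonic bases) was at 79.4, 75.1, 96.0 and 70.1 CPM (WT) against 143, 134, 131.5 and 135 CPM (KO), a narrow KO range, for a log2 fold change of 0.76 (SE 0.12, adjusted p = 0.0714 by edgeR). Ndufb5 (chromosome 3, 32736990 to 32751566, 4995 exonic bases) was at 172, 166, 186 and 132 CPM (WT) against 293, 284, 275 and 254 CPM (KO), for a log2 fold change of 0.75 (SE 0.14, adjusted p = 0.0728 by edgeR). Both have more exonic bases than most members, and in both the groups were apart.

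Ndufb3 (chromosome 1, 58586384 to 58595964, 763 exonic bases) was at 104, 99.8, 113 and 92.9 CPM (WT) against 199.8, 159, 145.5 and 158 CPM (KO), a log2 fold change of 0.69 (SE 0.13, adjusted p = 0.0728 by edgeR). Ndufb8, a subunit often used as a protein marker of assembled complex I (chromosome 19, 44548572 to 44555440, 3146 exonic bases), was at 213, 209.6, 237 and 175 CPM (WT) against 381, 315, 329.9 and 351 CPM (KO), a log2 fold change of 0.72 (SE 0.14, adjusted p = 0.0728 by edgeR). Their groups did not overlap either. Ndufa10, a kinase-like subunit on the matrix face of the arm (chromosome 1, 92439010 to 92473860, 3331 exonic bases), had the smallest log2 fold change of the arm. It was at 192, 163, 204 and 154 CPM (WT) against 217.5, 198, 212.5 and 228 CPM (KO). KO replicate 2 lay below WT replicate 3, and the log2 fold change was 0.26 (SE 0.13, adjusted p = 0.334 by edgeR). The other 12 membrane-arm members had log2 fold changes between 0.33 for Ndufb4 and 0.76 for Ndufb9 and edgeR adjusted p between 0.0769 and 0.387.

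The 8 Ndufaf assembly factors had a median log2 fold change of 0.46. An unadjusted p under 0.05 was found for 7, non-overlapping groups for 6, and DESeq2 and limma-voom each called 4. Ndufaf5, which modifies an arginine of Ndufs7, had the smallest p of the class (chromosome 2, 140170649 to 140203689, 1789 exonic bases). It was at 20.9, 19.97, 22.7 and 16.3 CPM (WT) against 30.5, 32.35, 35.1 and 30.4 CPM (KO), with means of 19.96 ± 2.72 CPM over the WT mice and 32.1 ± 2.195 CPM over the KO mice and a log2 fold change of 0.68 (SE 0.12, adjusted p = 0.0728 by edgeR). Every KO library was above every WT library, with KO replicate 3 highest.

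Ndufaf8, the partner that stabilises Ndufaf5 (chromosome 11, 120098928 to 120100705, 834 exonic bases), was at 13.1, 15.4, 14.65 and 12.9 CPM (WT) against 24.9, 19.3, 21.2 and 19.7 CPM (KO), a log2 fold change of 0.60 (SE 0.12, adjusted p = 0.0769 by edgeR). Ndufaf6, which acts early in assembly (chromosome 4, 11051045 to 11076205, 1235 exonic bases), was at 12.8, 12.85, 14.75 and 10.7 CPM (WT) against 20.4, 17.3, 20.97 and 19.8 CPM (KO), a log2 fold change of 0.62 (SE 0.13, adjusted p = 0.0769 by edgeR). In both genes the groups were apart. Ndufaf4, another early factor (chromosome 4, 24898083 to 24905001, 3902 exonic bases), had the smallest log2 fold change of the class. It was at 48.8, 40.6, 42.4 and 28.6 CPM (WT) against 56.6, 47.1, 51.3 and 49.7 CPM (KO). KO replicate 2 lay below WT replicate 1, and the log2 fold change was 0.35 (SE 0.16, adjusted p = 0.268 by edgeR). Ndufaf1, Ndufaf2, Ndufaf3 and Ndufaf7 had log2 fold changes between 0.36 and 0.47 and edgeR adjusted p between 0.0974 and 0.283.

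The assembly factors were the class with the lowest median level. Per kilobase of the principal transcript, which can be much shorter than the union of exons given above, and with the mean over 8 libraries, they ranged from 9.95 CPM per kb for Ndufaf3 to 22.6 CPM per kb for Ndufaf8, with a median of 16.1. The core subunits ranged from 100.2 to 294 CPM per kb (median 177) and the accessory subunits from 24.7 for Ndufb2 to 485 for Ndufb9 (median 204). By this length every assembly factor lay below every subunit. By the union of exons Ndufaf8, at 21.2 CPM per kb, lay above Ndufb2, at 19.2. Ndufa4l2, described as a gene that responds to low oxygen, was at 10.98 CPM per kb of its principal transcript. It was at 7.51, 7.785, 8.64 and 8.41 CPM (WT) against 16.0, 10.5, 11.1 and 12.0 CPM (KO), with groups that did not overlap and a log2 fold change of 0.62 (SE 0.16, adjusted p = 0.0999 by edgeR).

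Of 12 further complex I assembly genes without an Nduf name, 10 lay above 0 and 2 below on the log2 scale (median 0.27). edgeR called 0 of them, 4 had an unadjusted p under 0.05, all higher in KO, DESeq2 called 2 and limma-voom 0. The median was 0.025 with the muscle markers as a covariate (7 of the 12 positive), 0.07 without both replicates 4 and 0.16 with limma-voom. Nubpl, which delivers iron-sulfur clusters to the complex, was at 5.18 ± 0.872 CPM over the WT mice and 8.03 ± 0.948 CPM over the KO mice, for a log2 fold change of 0.63 (SE 0.17, adjusted p = 0.109 by edgeR). Dmac1 and Tmem70, factors linked to building the membrane arm, followed, Dmac1 at a log2 fold change of 0.45 (SE 0.13, adjusted p = 0.123 by edgeR) and Tmem70 at 0.48 (SE 0.16, adjusted p = 0.161 by edgeR). With the marrow markers as a covariate edgeR called these 3 genes, at adjusted p between 0.0377 and 0.0464.

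Exon length was considered because short genes were on balance higher and long genes lower in KO across the whole table. Over the 17450 genes tested, the median log2 fold change was 0.21 in the decile with the fewest exonic bases (38 to 1166) and fell by steps to -0.19 in the decile with the most (9243 to 123179). Complex I genes are short, with a median of 1643.5 exonic bases against 3856 over all genes. The 15 members in the shortest decile had a median log2 fold change of 0.64 and the 12 in the next decile one of 0.61, where all genes had medians of 0.21 and 0.20. In all, 43 of the 44 members were above the median of all genes in their own decile, and the exception was Ndufa12, at 0.18 against 0.20. The members with many exonic bases lay on the same side as the short ones: Ndufb5 and Ndufb2, in a decile with a median of -0.07, were at 0.75 and 0.76, Ndufab1 was at 0.53 against -0.10 and Ndufs1 at 0.31 against -0.12. By the length of the principal transcript Ndufb5 is short, with 1079 bases in a decile with a median of 0.21, and the decile medians are -0.10 for Ndufb2, -0.05 for Ndufab1 and 0.02 for Ndufs1. Where several transcripts of a gene ranked equally as principal, the longest was taken. Both lengths can thus exceed that of the transcript expressed in bone, which was not tested.

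**Figure D4:**
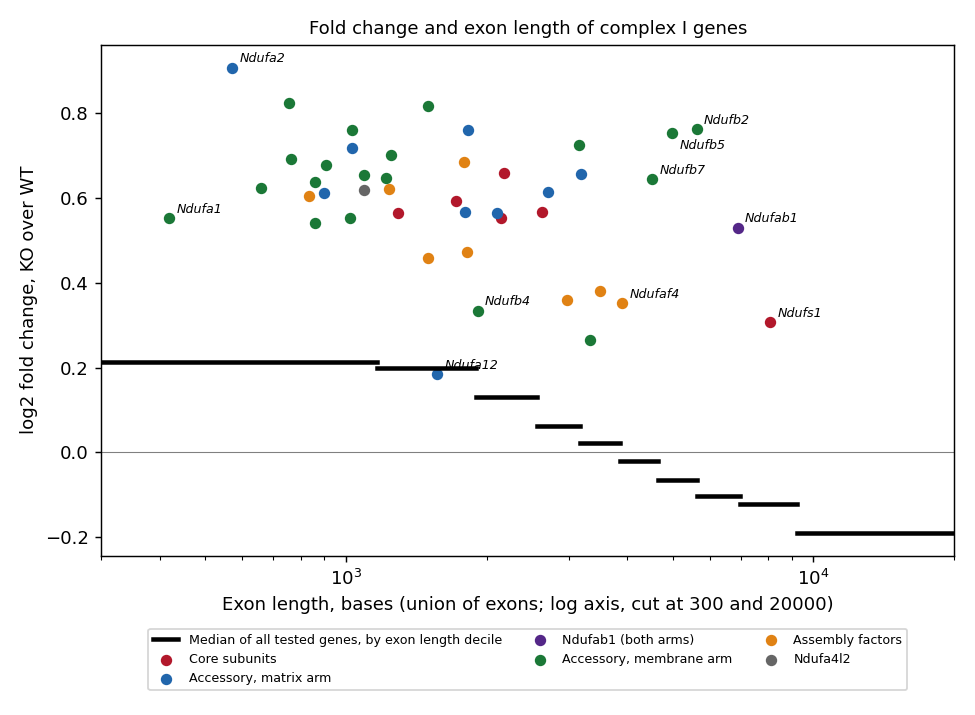
The horizontal axis is the exon length in bases on a log axis and the vertical axis the log2 fold change of KO over WT. Points are the 44 members, coloured by role, and black bars the median of all tested genes in each exon length decile, which runs from 0.21 to -0.19; Ndufa12 is the 1 point below its bar.

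After the trend with exon length was removed from each library, the median log2 fold change of the 44 members was 0.42. It was positive for 43 members, beside 49.9% of all genes, 37 had an unadjusted p under 0.05 higher in KO (8.01% of all genes), and edgeR called 0 (0.00573% of all genes). The classes then lay closer together: the core median went from 0.565 to 0.43, the accessory median from 0.65 to 0.45 and the assembly factor median from 0.46 to 0.35. Their median exon lengths were 2162.5, 1251 and 1802 bases. With the length of the principal transcript in place of all exons, an alternative chosen after seeing the data, the medians were 0.39, 0.42 and 0.33. The difference between classes was not tested.

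Short and long subunits were also compared within a class. Of the accessory subunits, the 19 with a principal transcript under 1000 bases had a median log2 fold change of 0.65 and the 10 longer ones 0.63. All genes were at 0.25 and -0.03, but the longer side is not of like length. It reaches 123179 bases over all genes and 4371 over the accessory subunits. Most of the 10 lie in the deciles of 912 to 1418, 1418 to 1853 and 1853 to 2281 bases. There all genes had medians of 0.21, 0.12 and 0.07. Of the core subunits, 5 had a principal transcript of at least 1000 bases, with a median of 0.56, and Ndufs7, the 1 shorter, was at 0.59. The rank correlation of exon length with log2 fold change was -0.10 over the 29 accessory subunits, -0.26 over the 6 core subunits and -0.76 over the 8 assembly factors. With the principal transcript length it was -0.06, -0.71 and -0.38, so the order of core subunits and assembly factors depended on the length used. These are descriptions over genes, which share the same 8 libraries and are not independent replicates.

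The mitochondrially encoded core subunits did not share the direction of the nuclear ones. Of the 7, 5 lay below 0 and 2 above on the log2 scale (median -0.30), and edgeR called 0, with 0 at an unadjusted p under 0.05 and 0 called by DESeq2 or limma-voom. mt-Nd5, a proton-pumping subunit of the membrane arm, was at 11400, 10560, 9112 and 5350 CPM (WT) against 3622, 3574, 5026 and 11170 CPM (KO). KO replicates 1 to 3 were below every WT library and KO replicate 4 was among the highest of all, so the groups overlapped, and the log2 fold change was -0.64 (SE 0.41, adjusted p = 0.446 by edgeR). mt-Nd4, another pumping subunit, was at 8256, 9420, 8562 and 5260 CPM (WT) against 4818, 2101, 3654 and 10790 CPM (KO), with KO replicates 1 to 3 again below every WT library and a log2 fold change of -0.56 (SE 0.45, adjusted p = 0.554 by edgeR). Without WT replicate 4 and KO replicate 4 together, mt-Nd5 was at -1.35 (adjusted p = 0.0294 by edgeR) and mt-Nd4 at -1.31 (adjusted p = 0.0425 by edgeR), so both were called lower (1.01% of all genes). All 7 were then below 0 and the median was -0.77. mt-Nd5 was also called lower with the muscle markers as a covariate (2.83% of all genes), where all 7 were below 0 with a median of -0.81, and with the marrow markers as one (3.07% of all genes), where the median was -0.43. With limma-voom and with the exon length trend removed all 7 were below 0, with medians of -0.69 and -0.53. mt-Nd6, at 0.21, was the highest of the 7, and mt-Nd4l had the smallest p, at a log2 fold change of -0.46 (SE 0.26, adjusted p = 0.385 by edgeR). Counts were low for mt-Nd4l, with means of 8.53 CPM in WT and 6.20 CPM in KO, and for mt-Nd3, with 56.0 and 58.4 CPM. The next lowest of the 7, mt-Nd6, had a mean of 3152 CPM in WT. Whether reads of mt-Nd4l and mt-Nd3 were lost to copies or overlapping genes was not tested.

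Summed over genes, the 44 nuclear members held 0.513%, 0.511%, 0.578% and 0.517% of the counts in WT replicates 1 to 4 and 0.8985%, 0.759%, 0.7298% and 0.651% in KO replicates 1 to 4. All KO libraries lay above all WT libraries. The 7 mitochondrially encoded subunits held 5.30%, 5.60%, 4.98% and 3.79% in WT and 3.63%, 2.43%, 3.22% and 5.56% in KO. KO replicates 1 to 3 were below the lowest WT library and KO replicate 4 was not. The ratio of nuclear to mitochondrially encoded complex I counts was 0.0968, 0.0912, 0.116 and 0.136 in WT and 0.248, 0.312, 0.226 and 0.117 in KO. In 3 of the 4 KO libraries this ratio was above every WT library, and in KO replicate 4 it was within the WT range.

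**Figure D5:**
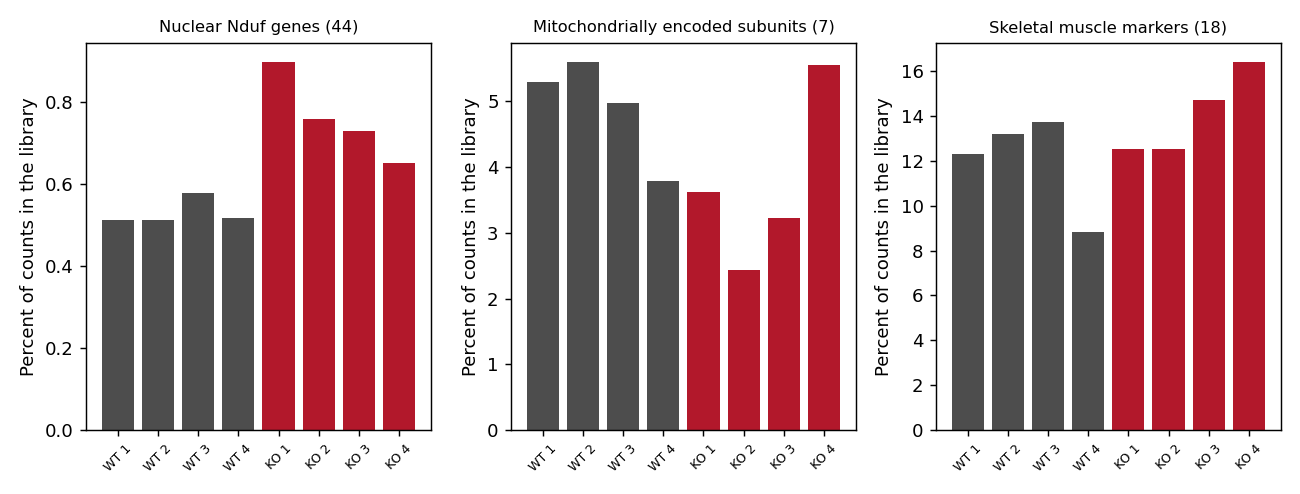
The vertical axes give the percent of all counts in a library, from 0, held by the 44 nuclear members, the 7 mitochondrially encoded subunits and the 18 skeletal muscle markers, for WT in grey and KO in red. The nuclear share is higher in every KO library, while the other 2 shares overlap between the groups and KO replicate 4 has the highest muscle share.

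Genes of complex II, which feeds electrons to ubiquinone from succinate and is wholly nuclear, lay on the same side as those of complex I. All 4 had positive log2 fold changes (median 0.54), edgeR called 0, 3 were at an unadjusted p under 0.05, and the counts called by DESeq2 and limma-voom were 3 and 2. Sdhb was at 266 ± 57.1 CPM over the WT mice and 450.0 ± 61.8 CPM over the KO mice, for a log2 fold change of 0.76 (SE 0.19, adjusted p = 0.0941 by edgeR). With the marrow markers as a covariate edgeR called Sdhb, Sdhc and Sdhd. The log2 fold change of Sdhc was 0.63 and that of Sdhd 0.44. Cytochrome oxidase has paralogous subunits that differ by tissue. The 3 isoforms of heart and skeletal muscle, Cox7a1, Cox8b and Cox6a2, had log2 fold changes of 0.81, 0.85 and 0.66, with unadjusted p under 0.05 for all 3. Their widely expressed counterparts Cox7a2, Cox8a and Cox6a1 had 0.64, 0.10 and 0.36, and Cox7a2 alone had an unadjusted p under 0.05. edgeR called 0 of the 6, with DESeq2 calling 3 of the muscle isoforms and 1 of the others. The distance between the sets depended on the fit. Without both replicates 4 the medians were 0.76 for the muscle isoforms and 0.63 for the others, with Cox8a at 0.35 and Cox6a1 at 0.78. With the muscle markers as a covariate they were 0.78 and 0.66, all 6 had an unadjusted p under 0.05 and edgeR called 2 of each, Cox7a1 and Cox8b, and Cox7a2 and Cox6a1.

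Markers of other tissue were set beside the members. Of the 18 skeletal muscle markers, 15 had positive log2 fold changes (median 0.45), edgeR called 0, 4 had an unadjusted p under 0.05, all higher in KO, and DESeq2 called 2. With limma-voom their median was 0.27, with 13 positive. Tnni2, a fast-fibre troponin, had the smallest p, at a log2 fold change of 0.80 (SE 0.24, adjusted p = 0.128 by edgeR), while the fast myosin Myh4 was at 0.16 (SE 0.36, adjusted p = 0.865 by edgeR). With the mean log2 CPM of these markers as a covariate, the median of the 44 members was 0.56 and edgeR called 24 (5.48% of all genes). Without WT replicate 4 and KO replicate 4, which had the lowest and highest muscle shares, the muscle median was 0.18, the median of the members was 0.57 and edgeR called 12 members (1.61% of all genes). The covariate lowered Ndufs1 from 0.31 to 0.06. With the covariate in the model and the length trend removed, the median was 0.32, 42 of the 44 were positive and edgeR called 6 (2.56% of all genes).

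Marrow and fat were represented as well. All 8 neutrophil markers had positive log2 fold changes (median 0.53), with a mean log2 CPM of 7.14 to 8.96 in WT and 6.22 to 9.40 in KO, the lowest in KO replicate 4 and the highest in KO replicate 1. Of 9 tested erythroid markers 6 were negative (median -0.45), with 7.77 to 9.34 in WT and 7.80 to 8.80 in KO. Of 8 B cell markers 5 were negative (median -0.37), with 2.71 to 3.70 in WT and 2.47 to 3.11 in KO. All 6 tested adipocyte markers were positive (median 0.63), with 2.39 to 4.12 in WT and 2.65 to 5.09 in KO, and the brown fat marker Ucp1 was at or near 0 in all libraries. Of these 4 lists edgeR called 0 genes, DESeq2 called 1 adipocyte marker, and 0 neutrophil, 1 erythroid (lower), 2 B cell (lower) and 1 adipocyte marker (higher) had an unadjusted p under 0.05. With the muscle markers as a covariate, the fit that called 24 members, edgeR called all 8 neutrophil markers higher (median 1.65), the erythroid median was -0.13 and the B cell median 0.20. Without both replicates 4 the neutrophil median was 1.29, with Camp called, the erythroid median was -0.04 and the B cell median 0.06. With limma-voom the erythroid median was -0.11 and the adipocyte median 0.35, with 4 of the 6 adipocyte markers positive. KO replicate 1, the highest library for 34 members, was also the highest for the adipocyte and neutrophil markers. The part of these cells in the members' levels was not tested. The marrow score used as a covariate was the mean log2 CPM of the erythroid, neutrophil and B cell markers, without the adipocyte markers. It joins neutrophil markers, higher in KO, with erythroid and B cell markers that were mostly lower. As a mean over all of these markers, the score cannot separate these cells. It overlapped between groups, at 6.258 to 7.413 in WT and 5.695 to 7.025 in KO. With the marrow score as a covariate, the median of the members was 0.62 and edgeR called 36 members (4.73% of all genes).

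Shared sequence touches some members. Processed pseudogenes with at least 250 bases at 95% identity or more were found for 8 members, and the copies that are in the table held at most 0.837% of the counts of their member (Ndufs5). How multi-mapping reads were handled is not given, so this share does not bound the reads that fit both a member and its copy. The exons of 18 members overlap those of another gene, by 65.6% of exon length for Ndufaf2, 39.0% for Ndufb6 and 29.98% for Ndufa13. Among other genes named above the overlap was 19.5% for Ndufb9, 12.3% for Ndufb5 and 11.5% for Ndufa2. Where the other gene lies on the opposite strand, its reads cannot be told apart from those of the member without a stated strand setting. Ndufb2, Ndufb8 and Ndufb9 also overlap a gene on the same strand, where a strand setting would not separate the reads.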

How the data were processed

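The 8 libraries, 4 WT and 4 KO, hold RNA of femoral shaft bone, and their titles gave group and replicate number. The labels state 4 mice per group, so 1 library was taken as 1 mouse. The authors deposited a single table of whole-number counts for each Ensembl gene ID, with no normalization. The submitters' processing notes name bcl2fastq (2.17), STAR (2.5.2b), featureCounts, Subread (1.5.2) and mm10. How each tool was set, which annotation was used, whether strand was counted and how multi-mapping reads were handled is not given in the sources used here. GENCODE M21 (GRCm38, equal to mm10) supplied symbols, positions and exon lengths, taken as the union of exons, for 48970 of 49315 IDs. The 345 others took 0.0312% to 0.0501% of counts.

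The comparison used edgeR 4.0.16 (R 4.3.3) with TMM, filterByExpr, the robust quasi-likelihood test and group as the only term. Benjamini-Hochberg adjustment covered all 17450 genes tested, at a threshold of 0.05, and SE is the size of the log2 fold change divided by the square root of the F statistic. CPM are given as mean ± SD, and log2 CPM used a prior count of 2. The length trend was removed by loess offsets of span 0.3 per library. Alternatives were DESeq2 1.42.0, limma-voom (limma 3.58.1), other scalings and filters, length and GC trends, the replicate block, scores of muscle or marrow markers as covariates, and each library or both replicates 4 left out. Further alternatives, chosen after seeing the data, were the principal transcript length, the length trend removed without both replicates 4 or with the muscle score, a newer quasi-likelihood method and a threshold of 0.10. The fits were also run on simulated counts, drawn independently for each gene, and the outcome is not given here. No library repeated another: over 28 pairs the lowest chi-square per degree of freedom was 42.8, from genes with a mean of at least 100 counts.

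Of the genes that meet the rule for members, 1 is not reported here and enters no count, median or sum over members. Genes given with the value in every library are the nuclear core subunits described, the 4 matrix-arm, 6 membrane-arm and 3 assembly factor members with the smallest p, the member with the lowest log2 fold change of each of these 3 classes, and Ndufa4l2. Of the other lists (mitochondrially encoded subunits, other assembly genes, regulators, complex II and cytochrome oxidase isoforms) up to 3 genes with the smallest p are named. Nrf1, Gabpa, Yy1, Esrra, Ppargc1a, mt-Nd6 and the muscle markers named were chosen outside this rule, after their values were seen. The members and all lists, including the markers of muscle, bone, erythroid cells, neutrophils, B cells and adipocytes, were chosen with earlier results of these data known. Promoter windows came from RefSeq on GRCm38.p6.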

Additional observations from a re-analysis of the deposited data

Results flagged for a closer look

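In the KO group, Ndufs3 in KO replicate 4 stood apart from the other KO libraries, at 233 CPM against at least 249 CPM in each. The gap to the nearest library was 0.899 of the range of the group, above the 95% critical value of Dixon for 4 samples. It was 1 of 88 groups checked (44 members in WT and in KO), and chance alone flags about 1 in 20 groups. The value still lay above every WT library.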

How the results depend on the processing

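The number of members called by edgeR was 0 with DESeq2 size factors, library totals without TMM, the stricter filter (at least 1 CPM in at least 4 libraries), either exon length trend, the principal transcript length trend and the newer quasi-likelihood method. Other counts follow with the share of all genes tested in the same fit that was called higher in KO. They were 6 without a low-count filter (0.171%), 24 with the muscle score (5.48%) and 36 with the marrow score (4.73%). They were 12 without both replicates 4 (1.61%), 6 with the muscle score and the length trend removed (2.56%), and 28 at a threshold of 0.10 (1.83%). Without both replicates 4 and with the length trend removed the count was 2, and the share of all genes was not tallied for that fit. DESeq2 called 35 (3.9% of the genes it gave an adjusted p) and limma-voom 29 (2.41%). Whether a member is called thus depended on the tool and the model, and the cause was not tested.

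The median log2 fold change stayed positive for all 44 members and for each class under every alternative run. With the exon length trend removed it was 0.42 over all members, 0.43 for core and 0.45 for accessory subunits, and 0.35 for assembly factors. With length and GC removed it was 0.43, 0.44, 0.46 and 0.33, and with the principal transcript length 0.39, 0.39, 0.42 and 0.33, in the same order. Without both replicates 4 and without the length trend it was 0.34, 0.31, 0.39 and 0.29, and with the muscle score and without the length trend 0.32, 0.27, 0.36 and 0.27.

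Of the single members, 2 changed sign under some settings. Ndufa12 was at -0.042 with limma-voom, -0.010 without the length trend, -0.010 without length and GC, -0.025 with the muscle score, -0.036 without both replicates 4, -0.0355 without the principal length trend, and -0.276 and -0.284 under the 2 joint settings (without both replicates 4 and the length trend, and with the muscle score and without that trend). Ndufb4 was at -0.023 and -0.0016 under these 2 joint settings. Neither passed the main test.

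Leaving out each library in turn gave 0 calls each time and medians of 0.51 to 0.68 over all members, 0.49 to 0.65 for core subunits, 0.57 to 0.70 for accessory subunits and 0.42 to 0.53 for assembly factors. The count of members higher in KO at an unadjusted p under 0.05 was 38 to 40, and the share of all genes was not tallied for these fits. Libraries of equal number did not deviate together (correlations -0.568 to -0.166, and 0 of 8 libraries correlated best with their own number), so the numbers were not taken as pairs. The replicate block gave 0 calls and a median of 0.61 over all members (0.58, 0.64 and 0.46 for the classes). With it 38 members were higher in KO at an unadjusted p under 0.05, beside 882 of all 17450 genes, where the main fit had 1673.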
